A study of Mus musculus with 18 samples.

Results

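Parental mouse embryonic stem cells were followed between day 3 and day 6 of a mesoderm-inducing differentiation, as the 3 bulk RNA libraries of each of these days. The 6 libraries were those labelled parental at day 3 and at day 6, chosen by label out of the 18 libraries of the series, and every gene in the deposited count table was examined. The other 12 libraries came from parental cells at day 0 and from cells labelled as a conditional knockout (cKO) of Oct1 at days 0, 3 and 6, again 3 a group. Pou2f1 encodes Oct1, a POU-family relative of Oct4. The labels give the parental cells no genetic modification, name no strain or clone, and call the cells of every day ESC. Per the design text, cells were plated on gelatin and differentiated by the protocol of Chal and colleagues, and total RNA was taken from trypsinised suspensions. Whether separate cultures stand behind the 3 libraries of a day is not stated. Each p-value therefore measures only spread between libraries, which may be technical. This spread was estimated over all 18 libraries together, so spread within the day 0 and cKO groups also enters each test.

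Protocols of this kind take pluripotent cells through a state like the primitive streak, the site where mesoderm leaves the epiblast of the embryo, and into presomitic mesoderm. Presomitic mesoderm is cut into somites under the control of Wnt, FGF and Notch signals, and somites give rise to vertebrae, dermis and skeletal muscle. The posterior streak region also holds neuromesodermal progenitors, which express T and Sox2 together and can form either paraxial mesoderm or spinal cord. Cdx factors and posterior Wnt signals switch on Hox genes in the order of their position in the 4 clusters, and retinoic acid made by somites promotes differentiation of both mesoderm and neural tissue.

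Between day 3 and day 6 the parental libraries lost transcripts of pluripotency and of the primitive streak, with T falling from a mean of 317 to 1.44 CPM and Pou5f1 from 327 to 6.27 CPM. They gained transcripts of genes used in somite, muscle progenitors, neural tube and neural crest, some of which these lineages share. Pax3 rose from 1.02 to 80.7 CPM, Pax6 from 7.16 to 153 CPM and Ednrb from 0.422 to 139 CPM. Among muscle and crest genes, Myog rose, Myf5 and Sox10 rose but stayed low, Myod1 had too few counts to be tested, and Foxd3 fell. Hox genes of paralogue groups 2 to 9 rose, and 82 of 83 cytosolic ribosomal protein genes fell. Levels are counts scaled to library size (CPM) with TMM scaling, given as mean ± SD with n = 3 or for replicates 1, 2 and 3 in turn. Of 25279 genes in the table, 20267 had enough counts to be tested. At a Benjamini-Hochberg adjusted p under 0.05 in edgeR's quasi-likelihood test, 13237 genes (65.3%) were called, 6609 (32.6%) higher and 6628 (32.7%) lower at day 6. The values of the 3 libraries of day 3 and those of day 6 did not overlap for 74.9% of the tested genes. At least 2-fold changes were called upward for 18.9% of genes and downward for 15.9%, and 914 genes rose and 585 fell by at least 8-fold. The median log2 fold change over all genes was 0. Counts against each list below are to be read against these shares, and no list was itself tested.

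Library totals ran from 17071813 to 26995420 counts at day 3 and from 14046322 to 26848049 at day 6. Pearson correlations of log2 CPM were 0.990 to 0.992 within a day and 0.892 to 0.897 between days. Messenger RNA of the mitochondrial genome made up 5.31 to 5.62% of counts at day 3 and 3.00 to 3.20% at day 6, and H19 alone rose from at most 0.0081% to between 0.58% and 0.61%. Scaling by total counts in place of TMM shifted the median log2 fold change of all genes by 0.17. The gene targeted in the cKO cells, Pou2f1, stood at 123, 132 and 136 CPM at day 3 and 137, 142 and 141 CPM at day 6 in the parental libraries, a log2 fold change of 0.10 ± 0.11 (estimate ± SE, as for all log2 fold changes, with adjusted p = 0.431). In the cKO libraries it was at 87.3 ± 7.16 CPM at day 3 and 77.3 ± 10.3 CPM at day 6. In bulk RNA, a lower share of cells of a type and less RNA of a gene in each cell cannot be told apart, and CPM is a share of all RNA counted.

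**Figure D1:**
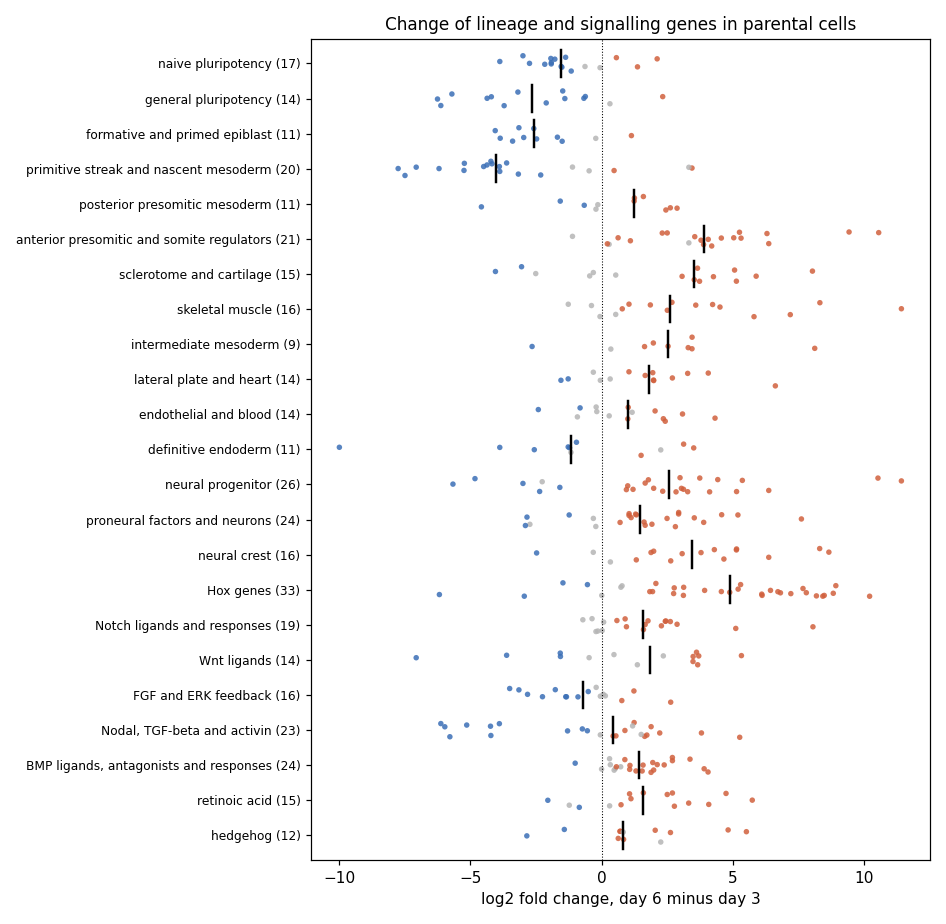
Each point is 1 tested gene of a list, placed by its log2 fold change from day 3 to day 6 in the parental libraries (orange called higher, blue called lower, grey not called), with the number of tested genes in brackets and a black bar at the list's median. The streak list lies furthest to the left, with a median of -4.04, and the Hox list furthest to the right, with a median of 4.87.

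Genes of pluripotent cells fell between the 2 days. Of the 14 tested genes shared by pluripotent states, 12 fell and 1 rose, and the median log2 fold change was -2.65. Pou5f1, which encodes the core pluripotency factor Oct4, stood at 323, 315 and 343 CPM in the day 3 libraries and at 6.59, 6.02 and 6.2 CPM in the day 6 libraries. The log2 fold change was -5.71 ± 0.29 (adjusted p = 4.45e-10). Nanog, its partner in the pluripotency network, had 196, 213 and 192 CPM at day 3 and 13, 12.2 and 15.9 CPM at day 6 (log2 fold change -3.88 ± 0.12, adjusted p = 4.99e-15). For both genes every day 6 library lay far below every day 3 library, and Pou5f1 had already been lower at day 3 than at day 0, where its mean was 891 CPM. Tdgf1, which encodes the Nodal co-receptor Cripto, fell from 593 ± 38.2 to 8.54 ± 0.739 CPM. L1td1, an RNA-binding protein gene of pluripotent cells derived from a LINE-1 element, fell from 639 ± 12.4 to 8.45 ± 0.95 CPM. Lin28a, the RNA-binding protein that blocks let-7 maturation, fell from 546 ± 29.4 to 126 ± 6.03 CPM. The day 6 libraries thus carry the label ESC with Pou5f1 at a mean of 6.27 and Nanog at 13.7 CPM. The titles of the day 0 libraries begin with another number than those of days 3 and 6, so day 0 levels are set beside the later ones without a test.

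The member that rose was Sox2, which serves both pluripotent cells and neural progenitors. It was at 28.8, 41.9 and 39.6 CPM at day 3 and at 186, 184 and 183 CPM at day 6, a rise of 2.32 ± 0.31 (adjusted p = 1.85e-05), with no overlap between the days. Its mean had been 455 CPM at day 0, so day 3 held the lowest of its 3 daily means. Lin28b was not called, at 122 ± 5.55 and 151 ± 2.13 CPM (adjusted p = 0.0717).

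Of 17 tested genes of the naive, inner-cell-mass-like state, 12 fell and 3 rose. Dppa5a fell from 54.3 ± 4.38 to 8.17 ± 1.35 CPM and Zfp42, also called Rex1, from 22.6 ± 0.782 to 5.95 ± 0.629 CPM. Both were already far under their day 0 means of 2152 and 383 CPM. The members that rose were Tet2, a DNA demethylation enzyme used beyond this state, Tbx3, and Prdm14, which stayed at or under 0.71 CPM in every day 6 library. Klf5 was not called, with means of 22.3 and 14.4 CPM, but its fall was called without replicate 2 of cKO day 6 (adjusted p = 2.62e-05) and with the 6 parental libraries alone (adjusted p = 8.09e-09). Of 11 tested genes of the formative and primed epiblast, 9 fell and 1, Sall2, rose. The de novo DNA methyltransferase gene Dnmt3b fell from 643 ± 47.2 to 38.6 ± 3.12 CPM (log2 fold change -4.06 ± 0.10, adjusted p = 3.26e-16). Fgf5, a primed epiblast growth factor, fell from 14.3 ± 1.43 to 1.8 ± 0.31 CPM.

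Most genes of the primitive streak and nascent mesoderm fell. Of 20 tested members 15 fell and 2 rose, and the median log2 fold change was -4.04. T (chr17:8434423-8442496, plus strand), which encodes the T-box factor Brachyury, was at 339, 265 and 347 CPM in the day 3 libraries and at 1.69, 1.49 and 1.13 CPM in the day 6 libraries. The log2 fold change was -7.75 ± 0.53 (adjusted p = 2.02e-08). The libraries of the days were far apart, and the day 0 mean had been 1.07 ± 0.294 CPM. Nkx1-2, a homeobox gene of the caudal epiblast, was at 303, 264 and 297 CPM at day 3 and 1.99, 1.32 and 1.5 CPM at day 6 (log2 fold change -7.49 ± 0.21, adjusted p = 1.74e-14). Wnt8a, a posterior Wnt ligand, was at 188, 199.6 and 205 and 1.52, 1.32 and 1.63 CPM (log2 fold change -7.06 ± 0.23, adjusted p = 1.34e-13). Fgf8, the FGF ligand of the streak and presomitic mesoderm, was at 39.4, 35.9 and 39.5 and 0.549, 0.575 and 0.376 CPM (log2 fold change -6.19 ± 0.33, adjusted p = 3.31e-11). In each of these genes the lowest day 3 library exceeded the highest day 6 library many times over.

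Mixl1 and Eomes, transcription factor genes of mesendoderm, fell from 6.65 ± 0.927 to 0.153 ± 0.106 CPM and from 14.5 ± 2.27 to 0.595 ± 0.283 CPM. Sp5, a direct Wnt target that encodes a zinc-finger factor, fell from 41.5 ± 7.96 to 2.25 ± 0.543 CPM. Fst, which encodes the activin antagonist follistatin, fell from 218 ± 27 to 14.6 ± 0.46 CPM. Wnt3a, a ligand of the posterior streak, was low on both days, at 1.29, 0.678 and 1.38 and then 0.634, 0.913 and 0.814 CPM, and was not called (adjusted p = 0.314). Mesp2 stayed at or under 0.468 CPM in all 6 libraries. The members that rose were Lhx1, from 0.404 ± 0.0744 to 4.47 ± 0.512 CPM, and Sp8, from 34.4 ± 1.78 to 47.5 ± 3.03 CPM.

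The 250 bases before the start sites of T and Sp5, from the RefSeq table of build GRCm38.p6, are shown because both are textbook targets of Wnt signalling and each window holds a match to the TCF/LEF letters CTTTGAA or CTTTGAT, searched on both strands and printed in capitals. The T window is chr17:8434173-8434422 and the Sp5 window chr2:70474673-70474922, both on the plus strand.
T: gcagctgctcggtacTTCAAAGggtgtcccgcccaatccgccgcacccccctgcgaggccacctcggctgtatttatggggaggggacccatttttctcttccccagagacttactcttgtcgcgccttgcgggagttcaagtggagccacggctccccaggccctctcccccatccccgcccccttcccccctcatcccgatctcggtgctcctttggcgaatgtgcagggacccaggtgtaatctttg
Sp5: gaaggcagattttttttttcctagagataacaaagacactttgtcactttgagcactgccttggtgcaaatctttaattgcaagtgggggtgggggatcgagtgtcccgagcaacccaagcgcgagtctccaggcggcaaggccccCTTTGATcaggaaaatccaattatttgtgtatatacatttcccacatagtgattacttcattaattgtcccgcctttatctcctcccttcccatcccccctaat
The match starts 235 bases before the start site of T and 104 before that of Sp5. Such letters stood in 2457 of 32851 promoter windows of the same length (7.48%), and in 3 of the 15 streak genes with a window, the other being Sp8. A match of letters is a description and was not tested as a site.

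**Figure D2:**
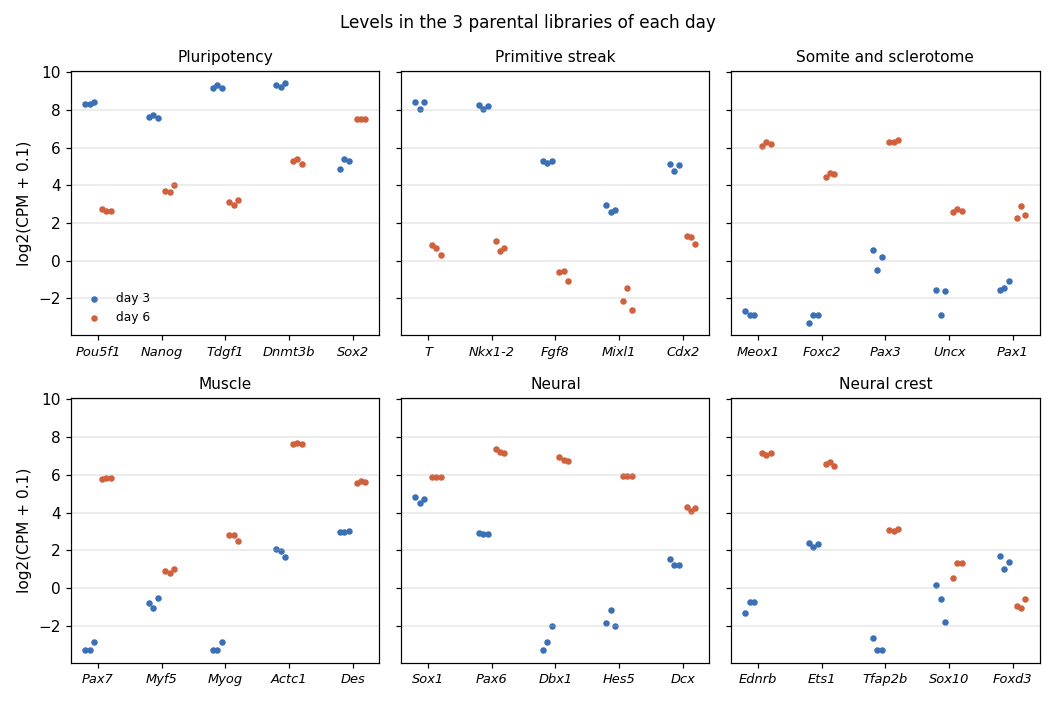
Points are the 3 parental libraries of day 3 (blue) and of day 6 (orange), on a log2(CPM + 0.1) axis, for 5 genes each of pluripotency, primitive streak, somite and sclerotome, muscle, neural tissue and neural crest. The 5 streak genes drop in all libraries, Sox2 rises while the other pluripotency genes drop, and Foxd3 is the neural crest gene that drops.

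Genes of the posterior presomitic mesoderm moved apart. Of 11 tested members 6 rose and 3 fell. Tbx6, the T-box gene that defines presomitic mesoderm, was scarce on both days, at 0.409, 0.414 and 0.149 CPM and then 0.549, 0.981 and 0.689 CPM, although the rise was called (1.23 ± 0.42, adjusted p = 0.0143). The call was lost without replicate 3 of day 3 (adjusted p = 0.0887) or replicate 2 of day 6 (adjusted p = 0.0986). Hes7, the oscillator of the segmentation clock, stayed at or under 0.887 CPM in all 6 libraries and was not called, and Dll3 was not called at 10.8 ± 0.727 and 9.76 ± 0.156 CPM. Fgf17 fell from 12.7 ± 0.842 to 0.548 ± 0.281 CPM, and Rspo3, a Wnt-enhancing secreted protein gene, fell from 2.79 ± 0.164 to 1.8 ± 0.616 CPM (adjusted p = 0.0343, 0.127 with total-count scaling, and up to 0.137 without any of 5 of the 6 libraries). The largest rises were in the Notch pathway members Dll1, Lfng and Nrarp, described with that pathway. Msgn1 and Mesp1 were not analysed here.

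Regulators of the anterior presomitic mesoderm and somite rose: 18 of 21 tested members were higher at day 6 and none lower, with a median of 3.88. Meox1 (chr11:101877510-101894374, minus strand), a homeobox gene of the forming somite, had 0.0585, 0.0376 and 0.0373 CPM at day 3 and 68.2, 78.7 and 71.9 CPM at day 6. The day 3 values come from 3 counts in all, and the ratio of the levels is 1728 (95% counting interval 591 to 8381). Foxc2, a forkhead gene of paraxial mesoderm, had 2 counts over the 3 day 3 libraries and 21.4, 25.3 and 24.2 CPM at day 6, a ratio of 836 (95% counting interval 231 to 6907). Foxc1, its paralogue, rose from 1.09 ± 0.108 to 85.9 ± 1.44 CPM (log2 fold change 6.29 ± 0.33, adjusted p = 2.17e-10). Pax3, used by dermomyotome and also by dorsal neural tube and neural crest, was at 1.4, 0.602 and 1.04 and then 79.8, 78.5 and 83.7 CPM (log2 fold change 6.36 ± 0.41, adjusted p = 4.24e-09). None of these genes overlapped between the days.

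Smaller somite genes rose as well. Uncx, a gene of the caudal part of the somite, reached 6.18 ± 0.329 CPM from 0.165 ± 0.11 CPM. Ripply1, a repressor that ends the presomitic programme, reached 7.94 ± 1.14 CPM from 0.53 ± 0.122 CPM. Aldh1a2, the enzyme that makes retinoic acid in somites, rose from 1.85 ± 0.0805 to 10.5 ± 0.745 CPM. Tbx18, named after its values were seen, reached 4.13 ± 1.55 CPM. Tcf15, also called paraxis and needed for epithelial somites, was not called, at 7.72, 10.6 and 9.32 CPM and 10.4, 12.3 and 11 CPM (adjusted p = 0.456).

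Genes of the sclerotome, the part of the somite that forms vertebral cartilage, rose in 9 of 15 tested members and fell in 2. Pax1 and Pax9, the paired-box genes of ventral sclerotome, rose from 0.29 ± 0.0733 to 5.73 ± 1.42 CPM and from 0.057 ± 0.019 to 2.11 ± 0.319 CPM. Nkx3-2 had 2 counts in all at day 3 and 0.254, 0.676 and 0.376 CPM at day 6, a ratio of 16.3 (95% counting interval 4.16 to 140.3). The cartilage factor Sox9, which neural progenitors and neural crest also express, was at 2.75, 4.14 and 4.07 CPM at day 3 and 130.3, 126 and 132 CPM at day 6 (log2 fold change 5.12 ± 0.27, adjusted p = 2.35e-10). Sox5 and Sox6, its partners in cartilage, reached 16.3 ± 0.977 and 66.2 ± 2.46 CPM from 0.0502 ± 0.0869 and 1.12 ± 0.0433 CPM. Col2a1, the collagen of early cartilage and notochord, rose from 7.78 ± 1.56 to 89.3 ± 3.7 CPM, while Acan, the aggrecan gene of later cartilage, fell from 9.72 ± 0.59 to 1.15 ± 0.363 CPM.

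Of 16 tested skeletal muscle genes 12 rose and none fell. Pax7, a gene of muscle progenitors and of the dorsal neural tube, was at 0, 0 and 0.0373 CPM at day 3, a single count in all, and at 53.8, 56 and 57.3 CPM at day 6. The ratio of the levels is 3915 (95% counting interval 702 to 154690.0). Myog, the myogenic factor that starts terminal differentiation, likewise had 1 count at day 3 and 6.93, 6.97 and 5.45 CPM at day 6, a ratio of 465 (95% counting interval 83.1 to 18425). Myf5, the earliest myogenic factor, was at 0.468, 0.376 and 0.597 CPM and then 1.77, 1.62 and 1.88 CPM (log2 fold change 1.85 ± 0.51, adjusted p = 0.00523). Myod1 had too few counts to be tested, with 16 over the day 3 and 11 over the day 6 libraries. The fusion gene Mymk had 0 and 16 counts. Actc1, the cardiac actin gene that early skeletal and smooth muscle also use, rose from 3.63 ± 0.509 to 200.4 ± 4.52 CPM (log2 fold change 5.80 ± 0.29, adjusted p = 1.78e-10). Des and Acta1 rose from 7.75 ± 0.101 to 49.5 ± 2.24 and from 1.16 ± 0.278 to 13.9 ± 1.12 CPM (Acta1 was named after its values were seen). Myh3, the embryonic myosin heavy chain, was not called, at 6.33 ± 0.366 and 6.02 ± 0.842 CPM.

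In the lists of other mesoderm more genes rose than fell. The median log2 fold change was 1.80 for lateral plate and heart, 2.52 for intermediate mesoderm and 0.999 for endothelial and blood genes. Of 14 tested genes of lateral plate and heart, 9 rose and 2 fell. Prrx1, a homeobox gene of limb and somatic mesenchyme, was at 0.585, 0.602 and 0.522 CPM and then 46.6, 61.5 and 59.9 CPM (log2 fold change 6.61 ± 0.40, adjusted p = 1.63e-09). Nkx2-5, which defines the heart field, stayed at or under 0.423 CPM in all 6 libraries, and Hand2 and Tbx5 had too few counts to be tested. Of 9 tested genes of intermediate mesoderm, 7 rose and 1 fell. Osr1 had 1 count in all at day 3 and 5.63 ± 0.706 CPM at day 6, a ratio of 406 (95% counting interval 72.5 to 16092), and Wt1 fell from 20.9 ± 0.252 to 3.4 ± 1.07 CPM. Of 14 tested endothelial and blood genes, 7 rose and 2 fell, with Kdr at 1.69 ± 0.27 and 14.4 ± 3.67 CPM and Cdh5 at 0.212 ± 0.185 and 4.82 ± 0.696 CPM. Pecam1, an endothelial adhesion gene that ESCs also express, fell from 17.7 ± 0.16 to 3.4 ± 0.863 CPM.

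The summed level of the definitive endoderm list was 1235 to 1277 CPM in the day 3 libraries and 38.3 to 39.1 CPM in the day 6 libraries. At day 3 Trh, described below, had a mean of 1206.5 CPM. Of 11 tested definitive endoderm genes, 3 rose and 6 fell. Sox17 and Foxa2, the defining factors, were at 1.43 ± 0.272 and 0.617 ± 0.233 CPM at day 6. Trh (chr6:92242061-92244650, minus strand), the thyrotropin-releasing hormone gene, had the most negative fitted fold change among genes with a mean of at least 5 CPM on either day, leaving out those with 0 counts at day 6. It was at 1185, 1205 and 1230.2 CPM in the day 3 libraries and at 1.35, 0.879 and 1.44 CPM in the day 6 libraries, a log2 fold change of -9.99 ± 0.47 (adjusted p = 3.01e-10). Of 17 visceral endoderm genes, 8 rose and 4 fell. Afp had 0 counts at day 3 and 10 at day 6, and Apoe fell from 226 ± 12.3 to 25.6 ± 1.69 CPM. The members that rose most were Pdgfra, a mesenchymal receptor as well, from 1.14 ± 0.343 to 58.5 ± 5.72 CPM, and the basement membrane genes Lama1 and Col4a2.

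Neural genes rose together with the somite genes. Of 26 tested genes of neural progenitors, 20 rose and 5 fell, with a median of 2.57. Pax6 (chr2:105668900-105697364, plus strand), a paired-box gene of spinal cord and forebrain progenitors, was at 7.37, 7.04 and 7.09 CPM at day 3 and 168, 146 and 145 CPM at day 6, a rise of 4.42 ± 0.41 (adjusted p = 3.76e-07). Dbx1, which marks interneuron progenitors of the middle spinal cord, went from 0, 0.0376 and 0.149 CPM to 122, 112 and 104 CPM (log2 fold change 10.51 ± 0.89, adjusted p = 2.31e-05). Sox1, the earliest specific neural gene, was at 28.6, 22.7 and 26.1 CPM and then 58.7, 58.2 and 59.5 CPM (log2 fold change 1.19 ± 0.38, adjusted p = 0.0143). In each of these the libraries of the days were apart. Sox21 rose from 2.21 ± 0.473 to 88.9 ± 2.89 CPM, Zic1 from 1.04 ± 0.213 to 35.9 ± 4.37 CPM, and the homeobox gene Irx3 from 14.3 ± 1.07 to 138 ± 4.25 CPM.

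The 5 neural progenitor genes that fell were Olig1, Olig2, Gbx2, En2 and Nkx6-2. Olig2, a gene of motor neuron and oligodendrocyte progenitors, was at 49.7, 37.5 and 50.5 CPM and then 1.48, 2.1 and 1.06 CPM (log2 fold change -4.83 ± 0.27, adjusted p = 1.65e-10). Its neighbour Olig1 fell from 41.9 ± 3.39 to 0.798 ± 0.349 CPM. Gbx2, which marks anterior hindbrain and also the streak, fell from 90.5 ± 5.72 to 11.3 ± 0.413 CPM, and En2 and Nkx6-2 fell from means of 1.33 and 0.846 CPM.

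Of 24 tested genes of proneural factors and neurons, 18 rose and 3 fell. Neurog1, a bHLH factor that commits progenitors to neurons, went from 0, 0.0753 and 0.149 CPM to 17.4, 17.3 and 18.2 CPM (log2 fold change 7.60 ± 0.48, adjusted p = 1.15e-10). The neuronal RNA-binding protein gene Elavl4 rose from 1.72 ± 0.149 to 25.3 ± 0.741 CPM, and Dcx, the microtubule protein gene of migrating neurons, from 2.41 ± 0.345 to 18.2 ± 1.35 CPM. Tubb3, the neuronal tubulin, rose from 24 ± 1.06 to 58.6 ± 3.53 CPM, and had a day 0 mean of 67.6 CPM. Stmn2 and Nefl, which these cells also expressed at day 0 at 270.2 and 55.9 CPM, fell from 102 ± 6.34 to 13.6 ± 0.644 CPM and from 59.6 ± 3.94 to 25.1 ± 3.58 CPM. The third gene that fell was Neurog3.

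Of 16 tested neural crest genes, 13 rose and 1, Foxd3, fell. Ednrb, the endothelin receptor of migrating crest, was at 0.292, 0.489 and 0.485 CPM at day 3 and 144, 134 and 141 CPM at day 6 (log2 fold change 8.29 ± 0.56, adjusted p = 1.13e-08). Ets1, an ETS factor of cranial crest and endothelium, rose from 4.84 ± 0.405 to 94.1 ± 6.41 CPM. Tfap2b had 1 count at day 3 and 8.26 ± 0.281 CPM at day 6, a ratio of 579 (95% counting interval 103 to 22891). The crest-defining gene Sox10 was low, at 0.994, 0.565 and 0.186 CPM and then 1.35, 2.37 and 2.38 CPM (log2 fold change 1.88 ± 0.47, adjusted p = 0.00187). Foxd3, which ESCs also express, fell from 2.51 ± 0.589 to 0.453 ± 0.0993 CPM. The list shares Pax3, Sox9, Snai2, Msx1 and Zic1 with the somite, cartilage or neural lists.

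Among orphan nuclear receptors, all 3 tested Nr2f genes rose, a family named after its values were seen. Nr2f1, the COUP-TFI gene of neural and mesenchymal progenitors, was at 0.0585, 0.0376 and 0.112 CPM at day 3 and 213, 209 and 199 CPM at day 6, a log2 fold change of 11.39 ± 0.66 (adjusted p = 2.53e-09). Nr2f2 rose from 0.395 ± 0.211 to 153 ± 3.53 CPM. Of the 11 tested POU factor genes, 5 rose and 4 fell. Pou3f2 and Pou3f3, also called Brn2 and Brn1 and used by neural progenitors, reached 201, 189.6 and 196 CPM and 89.2, 85.6 and 86.1 CPM in the day 6 libraries. Their means at day 3 were 0.833 ± 0.185 and 0.411 ± 0.0731 CPM (log2 fold changes 7.84 ± 0.53 and 7.70 ± 0.49, adjusted p = 1.51e-08 and 2.97e-09). Pou3f1, the Oct6 gene of the epiblast, moved the other way, from 44.8 ± 2.17 to 3.11 ± 0.404 CPM. Pantr1, a noncoding gene next to Pou3f3, had no count in the day 3 libraries and 12.1, 11.4 and 14.1 CPM at day 6, at least 289-fold higher against a floor of 3 counts over the 3 libraries. Of the Sox family, with members that mark each of these lineages, 13 of 18 tested genes rose and none fell, including Sox4 from 86.5 ± 2.74 to 414 ± 8.91 CPM and Sox11 from 267 ± 2.97 to 827 ± 14.2 CPM (a family named after its values were seen).

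The Notch pathway, in which ligands on one cell release the receptor's intracellular domain to act with RBPJ in its neighbour, rose in 13 of 19 tested members and fell in none. Among ligands, Dll1 was at 12.5, 10.7 and 10.5 CPM at day 3 and 68.9, 68.1 and 68.3 CPM at day 6 (log2 fold change 2.61 ± 0.27, adjusted p = 4e-07), and Jag1 rose from 31.7 ± 3.29 to 47.2 ± 1.04 CPM. Among receptors, Notch1 rose from 34.7 ± 2.73 to 167 ± 3.88 CPM. Lfng, the glycosyltransferase that tunes the receptors, rose from 5.66 ± 0.717 to 30.7 ± 0.897 CPM, and Nrarp, a feedback inhibitor, from 6.39 ± 0.363 to 46.5 ± 2.1 CPM. Of the target genes, Hes5, the effector of neural progenitors, was at 0.175, 0.339 and 0.149 CPM and then 60.8, 62 and 60.9 CPM (log2 fold change 8.04 ± 0.58, adjusted p = 1.32e-08). Heyl rose from 0.354 ± 0.0921 to 12.4 ± 0.723 CPM, and Hes1 was not called at 22.6 ± 0.599 and 23.7 ± 2.34 CPM (adjusted p = 0.602).

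The 250 bases before the RefSeq start sites of Hes5 and Lfng are shown, on the plus strand at chr4:154960673-154960922 and chr5:140607091-140607340 of GRCm38.p6, because both genes are known Notch targets and rose. Capitals mark matches to the RBPJ letters TGTGGGAA or CGTGGGAA on either strand.
Hes5: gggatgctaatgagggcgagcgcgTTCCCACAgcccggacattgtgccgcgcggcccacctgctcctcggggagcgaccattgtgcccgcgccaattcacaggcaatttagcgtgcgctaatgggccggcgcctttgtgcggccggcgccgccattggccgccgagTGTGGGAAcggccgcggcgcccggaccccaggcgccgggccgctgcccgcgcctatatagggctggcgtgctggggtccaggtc
Lfng: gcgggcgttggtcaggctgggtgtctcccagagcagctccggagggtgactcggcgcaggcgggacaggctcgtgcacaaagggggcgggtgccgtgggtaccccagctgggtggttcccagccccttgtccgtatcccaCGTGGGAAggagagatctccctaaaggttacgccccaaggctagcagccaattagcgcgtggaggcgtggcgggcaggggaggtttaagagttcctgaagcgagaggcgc
The Hes5 window holds 2 matches, 226 and 84 bases before the start site and on opposite strands, and the Lfng window holds 1, at 110 bases. These letters occur in 686 of 32851 windows (2.09%), and in 4 of the 14 Notch genes with a window, which are Hes5, Hes7, Hey2 and Lfng. Of those 4, Hes7 was not called.

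The set of Wnt ligands expressed differed between the days. Of 14 tested ligand genes 6 rose and 4 fell. Those that fell were Wnt8a and Wnt3 of the streak, with Wnt5b and Wnt11, and Wnt3 went from 17, 17.8 and 17.9 CPM to 1.35, 0.879 and 2.25 CPM (log2 fold change -3.62 ± 0.61, adjusted p = 0.000121). Those that rose were Wnt7a, Wnt7b, Wnt4, Wnt5a, Wnt2b and Wnt10b. Wnt7a, a ligand of neural tube and limb ectoderm, went from 0.385 ± 0.0817 to 16 ± 1.03 CPM, and Wnt5a, a non-canonical ligand of posterior mesoderm, from 1.51 ± 0.528 to 18.1 ± 0.867 CPM. Wnt1, a dorsal neural tube ligand, had 0 counts at day 3 and 46 at day 6, too few to be tested. Among 20 response and feedback genes 7 rose and 6 fell. Axin2, a general Wnt target, was at 88.2, 69.9 and 88 CPM and then 62.9, 63.4 and 59.4 CPM (log2 fold change -0.40 ± 0.13, adjusted p = 0.0135, and 0.0981 with total-count scaling). Lef1 fell from 123 ± 7.25 to 38.2 ± 3.18 CPM and Ccnd1 from 159 ± 7.46 to 31.9 ± 0.419 CPM. Lgr5, an R-spondin receptor, and the secreted inhibitor Sfrp2 rose, from 1.15 ± 0.474 to 13.4 ± 0.958 CPM and from 21.1 ± 0.936 to 104 ± 6.26 CPM.

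FGF ligands of the epiblast and streak fell, and 4 of 5 receptor genes rose. The ligands Fgf8, Fgf17, Fgf5, Fgf15 and Fgf4 were the 5 that fell among 16 tested ligands and receptors. Of the 16, 7 rose, not all of them receptors, and the median log2 fold change was 0.20. Fgfr2 was at 18.5, 18.5 and 20.6 CPM at day 3 and 157, 156 and 149 CPM at day 6 (log2 fold change 3.00 ± 0.16, adjusted p = 1.57e-11), Fgfr3 rose from 1.95 ± 0.269 to 42.6 ± 4.1 CPM, and Fgfr1 was not called at 142 ± 2.18 and 133 ± 2.35 CPM. Of 16 genes that respond to FGF and ERK signalling, 9 fell and 3 rose. Etv5 and Etv4, ETS factors induced by FGF, fell from 194 ± 8.52 to 17.1 ± 1.48 and from 43.6 ± 3.36 to 4.91 ± 0.446 CPM. The feedback phosphatase gene Dusp6 fell from 151 ± 12.1 to 80.4 ± 6.03 CPM. Spry1 went against its relatives Spry2 and Spry4, rising from 7.14 ± 0.599 to 44.1 ± 0.601 CPM.

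In the TGF-beta superfamily, Nodal with its circle of co-factors and inhibitors fell, and TGF-beta and BMP genes rose. Nodal was at 36.9, 32.8 and 37.7 CPM at day 3 and 2.03, 2.13 and 1.44 CPM at day 6 (log2 fold change -4.22 ± 0.22, adjusted p = 5.65e-11). Its inhibitors Lefty1 and Lefty2 fell from 115 ± 13.8 and 76.5 ± 13.5 CPM to 1.86 ± 0.294 and 2.22 ± 0.419 CPM. Its transcriptional partner Foxh1 and the related ligand Gdf3 fell to 2.74 ± 1.03 and 1.24 ± 0.312 CPM. Tgfb2 rose from 1.23, 1.51 and 1.6 CPM to 53.6, 57.8 and 57 CPM (log2 fold change 5.25 ± 0.34, adjusted p = 3.91e-09), and the effector Smad3 from 28.4 ± 0.365 to 93.5 ± 1.94 CPM. Over the 23 tested Nodal, TGF-beta and activin genes, 10 rose and 10 fell.

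Of 24 tested BMP genes 17 rose and 1, the pseudoreceptor gene Bambi, fell. The ligand Bmp2 rose from 0.436 ± 0.0423 to 7.34 ± 0.573 CPM and Bmp4 from 0.816 ± 0.326 to 5.36 ± 0.682 CPM. Gdf11, a ligand that times the switch to posterior Hox codes, rose from 11.2 ± 0.981 to 72.2 ± 1.91 CPM. The target gene Id3 rose from 17.8 ± 0.952 to 52.8 ± 4.03 CPM, and the receptor gene Bmpr1a was not called, at 201 ± 9.33 and 199.8 ± 10.3 CPM.

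Retinoic acid genes rose in 11 of 15 tested members and fell in 2. Rarb, a receptor gene that is itself a retinoic acid target, was at 0.409, 0.753 and 0.671 CPM at day 3 and 33.4, 37.3 and 30.7 CPM at day 6 (log2 fold change 5.73 ± 0.47, adjusted p = 2.61e-08). Crabp1 and Crabp2, which carry retinoic acid in the cytoplasm, rose from 6.73 ± 0.447 to 113 ± 1.68 and from 37.2 ± 1.74 to 239.6 ± 7.63 CPM. The receptor gene of the streak, Rarg, fell from 70.1 ± 1.81 to 16.8 ± 1.27 CPM. Of 12 tested hedgehog genes 8 rose and 2 fell. The co-receptors Boc, Gas1 and Cdon rose, Boc from 2.81, 3.39 and 3.84 CPM to 155, 151 and 155 CPM (log2 fold change 5.51 ± 0.33, adjusted p = 1.56e-09). The direct target Gli1 fell from 5.29 ± 0.585 to 1.93 ± 0.647 CPM, while the target and receptor Ptch1 rose from 56.4 ± 2.86 to 100.4 ± 5.27 CPM (adjusted p = 0.0263), a call lost without any of 5 of the 6 libraries (adjusted p up to 0.0678). The ligand gene Shh was scarce, at 0.0249 and 0.152 CPM on average, and was not called.

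Hox genes, which give positional identity along the trunk, rose in all 4 clusters. Of 33 tested genes 26 rose, 4 fell and 3 were not called, and the median log2 fold change was 4.87. By cluster, 7 of 9 tested genes rose in Hoxa, 8 of 10 in Hoxb, 6 of 8 in Hoxc and 5 of 6 in Hoxd. Every tested gene of paralogue groups 2 to 9 rose, 24 in all, and the group medians lay between 1.88 for group 2 and 8.17 for group 6. Summed over a group per kilobase of exon, group 9 went from 0.599 to 172 CPM per kb. Groups 10, 12 and 13 stayed at or under 0.77 CPM per kb on both days. Hoxa11, Hoxd10, Hoxd11 and Hoxd12 were not analysed here, and Hoxc12 had 0 counts in these 6 libraries.

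The anterior gene Hoxb1, which responds early in the streak, was among those that fell. It was at 23.3, 22.4 and 21.4 CPM at day 3 and 14.9, 16.7 and 14.2 CPM at day 6 (log2 fold change -0.55 ± 0.21, adjusted p = 0.0321). This call was lost with total-count scaling (adjusted p = 0.144) and without any of 5 of the 6 libraries, at adjusted p values up to 0.0949. Its values did not overlap between the days, and Hoxd1 rose from 0.674 ± 0.195 to 2.87 ± 0.229 CPM. Hoxc13 and Hoxd13, which also fell, lie at the posterior ends of their clusters. The Hoxc13 call (adjusted p = 0.0496) was lost with RLE factors, total-count scaling, no filter on low counts or the 12 day 3 and day 6 libraries alone, at adjusted p values of 0.0535 to 0.0792, and without any of 4 of the 6 libraries, at values up to 0.172. Hoxd13 had 105 counts in all at day 3 and 1 at day 6, a ratio of 103 (95% counting interval 18.1 to 4110.0) in favour of day 3.

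Hoxb9 (chr11:96271457-96276595, plus strand), a gene of the thoracic trunk, was at 0.818, 0.866 and 1.79 CPM at day 3 and 411, 412 and 407 CPM at day 6, a rise of 8.41 ± 0.27 (adjusted p = 6.22e-13). Per length it was the Hox gene with the most counts at day 6, at 159 CPM per kb of exon. Hoxc6, a gene of the brachial level, went from 0, 0.0376 and 0.112 CPM to 78, 67.6 and 75.8 CPM (log2 fold change 10.20 ± 0.60, adjusted p = 8.82e-10). Hoxb3 rose from 1.54 ± 0.0936 to 162 ± 1.21 CPM, Hoxc4 from 0.508 ± 0.183 to 102 ± 7.11 CPM and Hoxb8 from 1.33 ± 0.73 to 108 ± 4.58 CPM. Levels per length dropped between groups 9 and 10 in both clusters with a tested group 10 gene. In Hoxa the day 6 means were 4.58 CPM per kb for Hoxa9 and 0.186 for Hoxa10, which was not called. In Hoxc they were 7.11 CPM per kb for Hoxc9 and 0.282 for Hoxc10. At day 3 Hoxc9 had 3 counts in all, a ratio of 399 (95% counting interval 136 to 1936). Hoxb5os, an antisense transcript across Hoxb5 and Hoxb6, reached 89.8 ± 2.01 CPM, and without a stated strand setting its reads cannot be told apart from theirs.

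**Figure D3:**
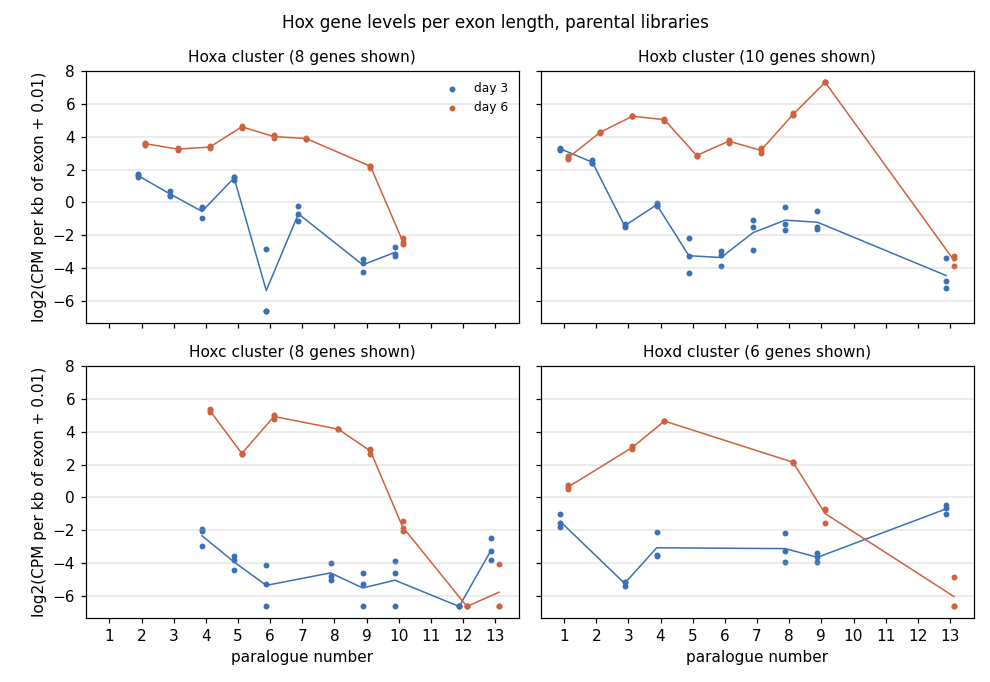
Levels of tested Hox genes of each cluster against paralogue number, as log2(CPM per kb of exon + 0.01), with points for the 3 parental libraries of day 3 (blue) and day 6 (orange) and lines joining their means. At day 3 Hoxb1 stands highest in its cluster, and at day 6 groups 2 to 9 lie above day 3 in every cluster.

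Cdx1, Cdx2 and Cdx4, caudal-type homeobox genes of the posterior embryo that act upstream of Hox genes, all fell. Cdx2 was at 34.8, 27.1 and 34.2 CPM at day 3 and 2.37, 2.3 and 1.75 CPM at day 6 (log2 fold change -3.88 ± 0.25, adjusted p = 1.14e-10), and Cdx1 was at 31.2, 30.9 and 30.7 and 1.06, 0.676 and 0.689 CPM. The TALE cofactors that bind DNA with Hox proteins rose. Meis1 was at 3.74, 2.63 and 2.91 CPM and then 320.2, 332 and 335 CPM (log2 fold change 6.75 ± 0.34, adjusted p = 4.04e-10). Meis2 rose from 103 ± 7.24 to 415 ± 1.46 CPM. Over the 14 tested Cdx genes, cofactors and axial regulators, 7 rose and 6 fell.

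Epithelial genes fell and mesenchymal genes rose. Of 25 tested genes of epithelial junctions and their regulators, 14 fell and 4 rose. Epcam, an adhesion gene of pluripotent and epithelial cells, was at 237, 242 and 254 CPM at day 3 and 19.5, 21.8 and 21.5 CPM at day 6 (log2 fold change -3.55 ± 0.28, adjusted p = 5.32e-08). Cdh1, the E-cadherin gene, fell from 438 ± 6.11 to 80.1 ± 3.96 CPM and Esrp1, an epithelial splicing factor gene, from 69 ± 1.5 to 10.4 ± 0.973 CPM. The 4 that rose were Dsp, Tjp3, Pkp2 and Tjp1. The Tjp1 call was lost with the 12 day 3 and day 6 libraries alone (adjusted p = 0.0671) and without any 1 of the 6 libraries (adjusted p = 0.0553 to 0.0591). All 5 simple epithelial keratins tested rose as well, with Krt8 at 30.1, 31.2 and 31.4 and then 128, 132 and 118 CPM (log2 fold change 2.03 ± 0.54, adjusted p = 0.00526) and Krt19 at 12.5 ± 1.65 and 69.7 ± 6.63 CPM.

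Of 14 tested genes of the epithelial to mesenchymal transition, 13 rose and none fell. Cdh2, the N-cadherin gene, was at 35.7, 33.7 and 34.5 CPM and then 470.4, 445 and 443 CPM (log2 fold change 3.71 ± 0.13, adjusted p = 7.97e-14). Vim rose from 124 ± 7.58 to 876 ± 32.9 CPM, Zeb1 from 14.8 ± 1.77 to 92 ± 2.59 CPM and Twist1 from 3.21 ± 0.453 to 39.9 ± 3.83 CPM. Of 23 tested collagens 18 rose and 2 fell. Col3a1 was at 0.409, 0.489 and 0.783 CPM and then 391, 436 and 397 CPM (log2 fold change 9.44 ± 0.23, adjusted p = 8.14e-15), and Col1a1 was at 1.81, 1.54 and 2.27 and 354, 352 and 353 CPM (log2 fold change 7.55 ± 0.28, adjusted p = 9.25e-12). Acta2, the smooth muscle actin gene, rose from 3.83 ± 0.488 to 838 ± 57.4 CPM. Postn and Fap, genes of activated fibroblasts and perichondrium, had 1 count each at day 3 and 16.6 ± 0.947 and 18.9 ± 1.02 CPM at day 6, ratios of 1179.5 (95% counting interval 211 to 46627) and of 1341 (95% counting interval 240.3 to 53024).

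Fibroblasts, such as the feeders used to grow ESCs, express the same matrix genes. Of 18 tested fibroblast and feeder markers, 12 rose and 1 fell, and their summed level was 176 to 186 CPM in the day 3 libraries and 2642 to 2877 CPM in the day 6 libraries. Day 0 libraries held Col1a1 at 539 ± 20.3 CPM and Col3a1 at 74.4 ± 5.002 CPM. The fibroblast marker Lum stayed at or under 0.338 CPM in all 6 libraries of days 3 and 6, Dcn was not called at 1.17 ± 0.248 and 1.53 ± 0.37 CPM, and Thy1 fell from 20.4 ± 1.86 to 0.287 ± 0.138 CPM. The part of such cells in the rise of matrix genes was not tested.

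Of 16 tested genes of IGF signalling, 13 rose and 3 fell, and of 28 imprinted genes 19 rose and 5 fell. H19 (chr7:142575529-142578143, minus strand), an imprinted growth-limiting noncoding gene, was at 74.1, 73.9 and 81.5 CPM at day 3 and 5213, 5575 and 5394 CPM at day 6 (log2 fold change 6.14 ± 0.21, adjusted p = 1.53e-12). Igf2, its neighbour expressed from the paternal copy, was at 1.58, 1.05 and 2.09 CPM and then 164, 176 and 166 CPM (log2 fold change 6.74 ± 0.31, adjusted p = 7.46e-11). Igfbp5, an IGF-binding protein gene that muscle and cartilage precursors express, was at 2.86, 2.52 and 4.62 and 1428, 1573 and 1436 CPM (log2 fold change 8.77 ± 0.45, adjusted p = 9.38e-10). All 3 rose without overlap, and the receptor gene Igf1r, named after its values were seen, rose from 48.9 ± 3.25 to 203 ± 5.65 CPM. Igf1 itself had 3 counts at day 3 and 12.9 ± 2.13 CPM at day 6, a ratio of 310.0 (95% counting interval 106 to 1506). Igfbp2, Igfbp3 and Grb10 were the genes that fell.

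Among the imprinted genes that rose were Peg10, Peg3, Mest and Dlk1. Peg10, a retrotransposon-derived gene of placenta, was at 679, 786 and 749.7 CPM and then 4069, 4358 and 4145 CPM (log2 fold change 2.50 ± 0.12, adjusted p = 2e-12). Peg3 rose from 626 ± 47.2 to 3249 ± 103 CPM. Mest and Dlk1, named after their values were seen, rose from 203 ± 16.6 to 2423 ± 82 CPM and from 4.75 ± 0.129 to 137 ± 7.88 CPM. Airn, the antisense noncoding gene of the Igf2r cluster, rose from 1.86 ± 0.198 to 53.5 ± 1.62 CPM, and without a strand setting its reads cannot be told apart from those of Igf2r where the genes overlap. Cdkn1c, a maternally expressed inhibitor of the cell cycle, rose from 15.7 ± 0.923 to 63.3 ± 2.58 CPM. Rian was not called at 1639.6 ± 79.98 and 1492 ± 31.4 CPM, and the imprinted genes that fell were Snrpn, Phlda2, Impact, Grb10 and Zrsr1. The Zrsr1 call was lost with total-count scaling (adjusted p = 0.338), and that of Grb10 too (adjusted p = 0.0529). Summed over the 28 genes, the level was 5676 to 5748 CPM at day 3 and 20483 to 21535 CPM at day 6. Counts per gene do not show which parental copy was read.

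**Figure D4:**
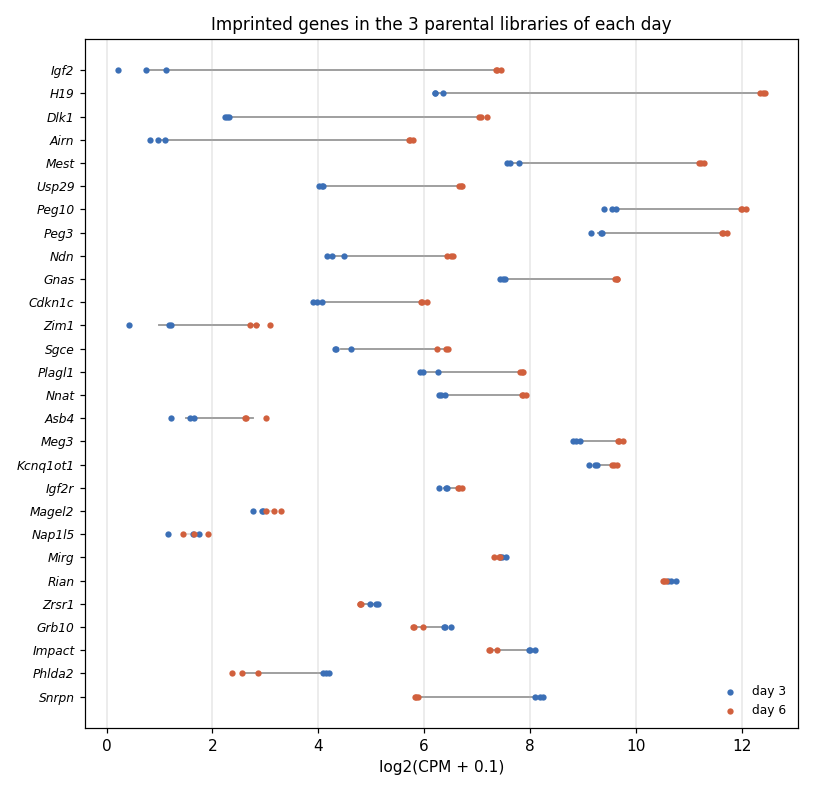
The 28 tested imprinted genes, ordered by log2 fold change from Snrpn at the bottom to Igf2 at the top, with points for the 3 parental libraries of day 3 (blue) and of day 6 (orange) on a log2(CPM + 0.1) axis; a darker line joins the daily means where the change was called. Genes in the upper rows move to the right by up to 6.74 log2 units, and 5 at the bottom move to the left.

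Genes of protein synthesis fell, in families defined by symbol after their values were seen. Of 83 cytosolic ribosomal protein genes, 82 fell and none rose, and the median log2 fold change was -1.01. Their summed level was 60389 to 63013 CPM in the day 3 libraries and 29316 to 31068 CPM in the day 6 libraries. Rpl3 was at 1297, 1309.7 and 1279 CPM at day 3 and 595, 632 and 628 CPM at day 6 (log2 fold change -1.07 ± 0.07, adjusted p = 1.07e-10), and Rplp0 fell from 2090.1 ± 78 to 810.2 ± 24.1 CPM. Ribosomal protein genes have many processed pseudogenes, so single-gene counts depend on how shared reads were assigned. Of 78 mitochondrial ribosomal protein genes 69 fell and 2 rose. Of 57 translation initiation factor genes 40 fell and 5 rose, and with total-count scaling 34 fell and 12 rose.

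The same direction was seen in other abundant machinery. Of 92 nuclear genes of the respiratory chain 81 fell and 2 rose, and of 13 messenger RNAs of the mitochondrial genome 12 fell. Of 39 proteasome genes 37 fell and none rose, and 8 of 9 CCT chaperonin genes fell, with the testis-type Cct6b rising from 0.252 ± 0.15 to 0.828 ± 0.0602 CPM. The nucleolar protein gene Npm1 was at 5580.4, 5650.3 and 5457 and then 1547, 1568 and 1509 CPM, and the chaperone gene Hspa8 at 5682, 5648 and 5694 and then 2048, 2158 and 2055 CPM (log2 fold changes -1.85 ± 0.12 and -1.44 ± 0.06, adjusted p = 1.49e-10 and 1.26e-13). With total-count scaling the median of the cytosolic ribosomal genes was -0.83 and that of the mitochondrial messenger RNAs -0.73, still negative.

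**Figure D5:**
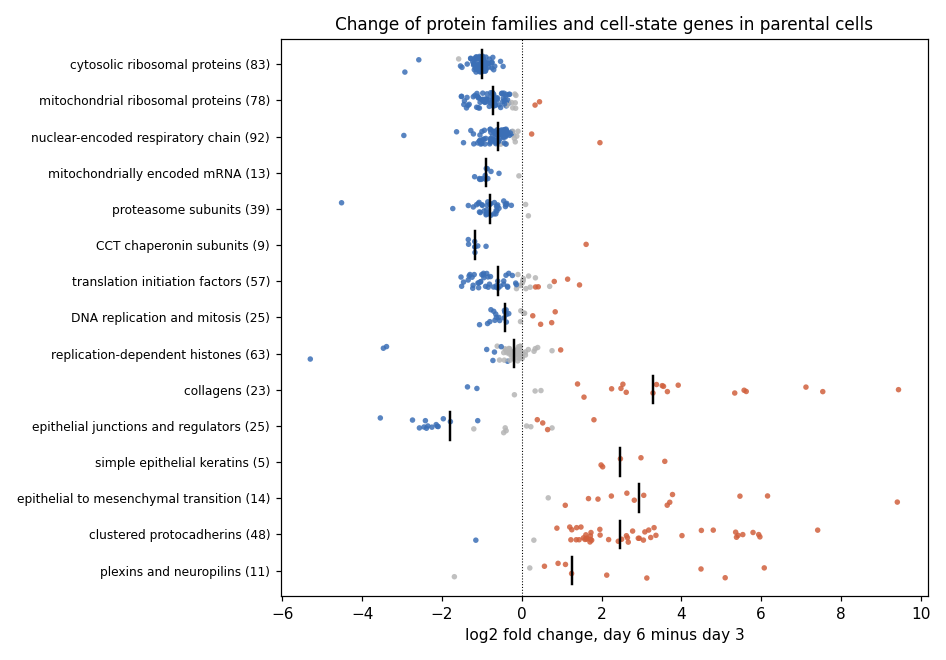
Points are tested genes of each family or list, by log2 fold change from day 3 to day 6 in the parental libraries (orange called higher, blue called lower, grey not called), with black bars at the medians and the number of tested genes in brackets. The families of translation, respiration and protein turnover lie left of 0, and collagens, keratins, mesenchymal genes and clustered protocadherins lie right of it.

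Cell cycle genes moved by small amounts. Of 25 tested genes of replication and mitosis 17 fell and 4 rose, with a median of -0.42, and with total-count scaling 10 fell and 6 rose. Mcm2, a subunit of the replicative helicase, fell from 412 ± 17.3 to 227 ± 12.2 CPM, and Ccne1, the G1/S cyclin, from 104 ± 3.63 to 49.7 ± 1.16 CPM. The proliferation marker Mki67 rose from 686 ± 9.81 to 951 ± 15.2 CPM. Of 63 replication-dependent histone genes, a family named after its values were seen, 8 fell and 1 rose. The histone count was unstable: 3 fell with total-count scaling, 5 without replicate 2 of day 3 or replicate 1 or 3 of day 6, 25 without replicate 2 of cKO day 6 and 30 with the 6 parental libraries fitted alone. Of 7 inhibitors of cyclin-dependent kinases 5 rose. Cdkn2c rose from 0.562 ± 0.0354 to 5.27 ± 0.602 CPM, whereas the p53 target Cdkn1a fell from 75.5 ± 4.02 to 39.8 ± 2.09 CPM.

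Of 21 tested p53 target genes 12 fell and 2 rose. Pmaip1, the apoptosis gene Noxa, was at 238, 233 and 244 CPM at day 3 and 19.3, 20.02 and 23.9 CPM at day 6 (log2 fold change -3.50 ± 0.44, adjusted p = 1.02e-05), and Trp53 itself fell from 271 ± 19.7 to 185 ± 4.45 CPM. The 2 that rose were Plk2 and Fas, and the Fas call was lost without any of 5 of the 6 libraries (adjusted p up to 0.16). Of 15 apoptosis regulators 5 rose and 5 fell, the pro-apoptotic Bmf and Bcl2l11 upward and Bid and Bax downward. Of 21 genes of protein and oxidative stress 12 fell and 3 rose, and the heat shock gene Hsp90aa1 fell from 3070.2 ± 109 to 993 ± 9.38 CPM.

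Of 28 tested genes of glycolysis and hypoxia 6 rose and 7 fell. Eno1, the enolase gene, fell from 2719 ± 205 to 1115 ± 25.1 CPM, and Vegfa rose from 11.4 ± 1.94 to 39.95 ± 1.68 CPM. Replicate 2 of day 3 stood apart in this list. Egln3, a hypoxia-induced prolyl hydroxylase gene, was at 25.6, 46.3 and 23.6 CPM in replicates 1, 2 and 3 of that day, and Ldha was at 643, 962 and 651 CPM. Without that library 12 members rose, and 11 without replicate 2 of cKO day 6.

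Chromatin regulators moved in both directions. Of the DNA methylation genes, Dnmt3b and its cofactor Dnmt3l fell with Tet1, while Dnmt1, Tet2 and Tet3 rose, Tet3 from 59.5 ± 1.77 to 210.3 ± 6.77 CPM. Dnmt3a was not called at 167 ± 17.3 and 142 ± 2.92 CPM. Of 19 Polycomb and Trithorax genes 9 rose and 6 fell. Among the chromobox subunits, Cbx7, the main one of ESCs, was at 96, 98.5 and 97.4 CPM and then 21.9, 23.1 and 24.6 CPM (log2 fold change -2.07 ± 0.21, adjusted p = 6.58e-07). Cbx2 and Cbx8 rose, Cbx8 from 1.25 ± 0.167 to 7.88 ± 0.864 CPM, and the PRC1 subunit Bmi1 rose from 7.07 ± 0.288 to 43 ± 1.11 CPM. The PRC2 subunits Suz12 and Eed fell, Suz12 from 356 ± 3.42 to 179 ± 2.25 CPM, and the H3K27 demethylase gene Kdm6b rose from 83.3 ± 3.67 to 305 ± 8.999 CPM.

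Most germline and totipotency genes fell. Of 18 germline and meiosis genes 12 fell and 2 rose, with Ddx4 at 14.2 ± 0.796 and then 2.17 ± 0.475 CPM and Sycp3 at 3.38 ± 0.319 and then 0.213 ± 0.141 CPM. Of 13 genes of the two-cell-like state 8 fell and none rose, from levels that summed to 7.37 to 8.28 CPM at day 3. Several are near-identical copies, so their single counts are uncertain.

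Cell surface genes of guidance and recognition rose. Of 48 clustered protocadherin genes, a family that gives neurons individual surface codes and was named after its values were seen, 46 rose and 1 fell around a median of 2.46, and the summed level was 86.2 to 96.1 CPM at day 3 and 304 to 314 CPM at day 6. Members share their constant exons, so reads may be split between them. Of 16 ephrins and Eph receptors 11 rose and 2 fell. Epha1 and Epha2, epiblast receptors, were the 2 that fell, Epha2 from 186, 197 and 188 CPM to 8.62, 9.27 and 7.77 CPM (log2 fold change -4.47 ± 0.36, adjusted p = 9.51e-08). Epha3 rose from 0.677 ± 0.163 to 31.1 ± 1.12 CPM and the ligand gene Efna5 from 7.54 ± 0.548 to 74.5 ± 0.807 CPM.

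Several of the largest rises were noncoding genes that contain microRNAs. The libraries measured the host transcripts and not the mature microRNAs, whose sequences from RefSeq are printed to show which seeds the hosts share. A set of 23 noncoding genes, chosen after its values were seen, had at least 5 CPM on either day. Each contains, on its own strand, a mature microRNA of the RefSeq table used, though not every chromosome or noncoding class was searched. Of these genes 16 rose, 1 fell and 6 were not called. Most that rose, such as Mir99ahg, Rmst and Mir22hg, were under 5 CPM at day 3 and entered the set only through day 6. Gm17494, which fell, entered only through day 3. The counts by direction thus depend on this threshold and are no measure of how such hosts changed. Gm4258 and Mir181a-1hg, which contain the same copy of miR-181b, are counted separately among those that rose. Mir99ahg (chr16:77236317-77773427, plus strand) had 2 counts at day 3 and 55.2, 54.2 and 50.9 CPM at day 6, a ratio of 1896 (95% counting interval 525 to 15662). Mir100hg, its counterpart on chromosome 9, was at 0.468, 0.941 and 1.72 CPM and then 21.9, 23.6 and 24.6 CPM (log2 fold change 4.41 ± 0.27, adjusted p = 5.65e-11). Capitals mark the seed, bases 2 to 8, read 5′ to 3′.
miR-99a-5p: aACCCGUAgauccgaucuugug
miR-100-5p: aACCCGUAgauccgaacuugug
miR-125b-5p: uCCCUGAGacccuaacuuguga
let-7c-5p: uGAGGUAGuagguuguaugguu
miR-199a-3p: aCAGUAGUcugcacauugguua
miR-214-3p: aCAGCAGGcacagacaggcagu
Mir99ahg contains miR-99a, let-7c and miR-125b, and Mir100hg contains miR-100, the let-7a-2 hairpin and another copy of miR-125b. The mature miR-99a-5p and miR-100-5p share the seed ACCCGUA, so both hosts encode it together with CCCUGAG and a let-7. Targets of microRNAs are set mainly by the seed, and let-7 is the family whose maturation Lin28 proteins block.

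Dnm3os, antisense to Dnm3 and so not separable from its reads without a strand setting, was at 0.292, 0.0376 and 0.0373 CPM at day 3 and 109, 131 and 121 CPM at day 6 (log2 fold change 10.14 ± 0.67, adjusted p = 9.97e-09), and it contains miR-199a and miR-214, which mesenchyme expresses. Mir124-2hg, the host gene of the neuronal miR-124 by its name and outside that count, rose from 0.335 ± 0.0421 to 89.7 ± 0.609 CPM, and Rmst from 0.324 ± 0.22 to 39.998 ± 3.48 CPM. Mir17hg, host of the miR-17 cluster, was not called at 101 ± 4.39 and 83.1 ± 1.53 CPM. Of the 12 tested genes of the let-7 and Lin28 axis, 5 rose and 5 fell, and Hmga2, a known let-7 target, rose from 53.6 ± 2.8 to 292 ± 9.17 CPM.

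The change from day 3 to day 6 was compared with that in the cKO cells, with which it shares no library. The difference of the changes was called for 5272 genes (26.0%), 2757 (13.6%) with a more positive change in parental cells and 2515 (12.4%) with a more negative one. One cKO library of day 6, replicate 2, stood apart from the other 2 along the first dimension of the log2 CPM values, and without it 6520 differences were called. The list counts that follow include that library and were not repeated without it. Of the streak list 13 members had a more negative change in parental cells and 2 a more positive one. Of the 26 neural progenitor genes 13 had a more positive change in parental cells, as did 14 of the 24 proneural and neuronal genes. Of the 21 somite genes 1 was more positive and 3 were more negative. Of the 25 epithelial junction genes 19 were more negative in parental cells and none more positive, and so were all 5 keratins. Differences over all Hox genes were called for 6 of 33, 1 more positive in parental cells and 5 more negative.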

How the data were processed

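Total RNA from parental and Oct1 cKO mouse ESC cultures at days 0, 3 and 6 was sequenced in 18 libraries, 3 a group. The authors deposited 1 table of raw counts per gene over 25279 genes, which carries no header on how it was made. The submitters' processing notes name Novoalign, DESeq2 1.10.0, mm10 and GRCm38. No label or header states which counter, annotation, strand setting or rule for shared reads was used, so counts of paralogues, pseudogene families and antisense pairs depend on choices that cannot be seen.

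Counts were analysed with edgeR 4.0.16 in R 4.3.3. Genes passing filterByExpr in the 6 groups (20267) were scaled with TMM and fitted together over all 18 libraries with a robust quasi-likelihood model, so that the groups share 1 estimate of spread (biological coefficient of variation 13.5%). Parental day 6 was tested against parental day 3, and that change against the cKO change, with Benjamini-Hochberg adjustment over all tested genes. The SE of a log2 fold change is its absolute value divided by the square root of its quasi-likelihood F statistic, not a separately fitted standard error. CPM values divide counts by the TMM-scaled library total. Ratios for genes with 3 or fewer counts in a group use exact 95% intervals for counting error only, and a group at 0 is set to a floor of 3 counts over its 3 libraries. PCR copies are not independent molecules, so these intervals cover counting error alone. Positions and exon lengths come from GENCODE M21 on GRCm38, which holds 25234 of the table's IDs.

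The gene lists (49), the families (12) and the genes named were chosen with earlier results of these data known. Named genes are the 15 largest called changes each way whose mean was 5 CPM or more without overlap between days, up to 8 called and 4 uncalled members of each list, all members of lists with 14 or fewer genes, all Hox genes, and the 10 highest genes of each day. Some genes covered by this rule are not reported here. Others are said to have been named after their values were seen. Alternatives were RLE and total-count scaling, other count filters, DESeq2 1.42.0 and other sets of libraries or genes. Single libraries of parental day 3, parental day 6 and cKO day 6 were also left out.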

Additional observations from a re-analysis of the deposited data

Results flagged for a closer look

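The change from day 3 to day 6 was called as different between parental and cKO cells, in edgeR's quasi-likelihood test, for 298 of the 630 genes covered by the naming rule, which includes the largest changes, and for 26.0% of all tested genes. Of the largest differences among those with a mean of at least 5 CPM, 5 more negative and 6 more positive in parental cells are given here. Differences are the parental change minus the cKO change on the log2 scale, each with its SE, so the levels of both days enter them. In brackets after each is the value without replicate 2 of cKO day 6, the library that stood apart.

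T went from 52.3 ± 23.4 to 27.4 ± 14.1 CPM in cKO cells, a difference of -6.81 ± 0.64 (adjusted p = 1.09e-05) [-7.17]. Trh went from 792 ± 97.1 to 25.1 ± 13.6 CPM in cKO cells, a difference of -5.01 ± 0.54 (adjusted p = 3.04e-05) [-5.41]. Both day 6 means in the parental cells lay below those of the cKO cells. Cdx1 differed by -4.22 ± 0.44 (adjusted p = 3.44e-06) [-3.66], with cKO cells at only 2.03 ± 0.853 CPM on day 3 already.

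Wnt6, a ligand of surface ectoderm, had 3.93 ± 0.822 CPM in parental and 52.9 ± 48.1 CPM in cKO cells at day 6, and differed by -4.43 ± 0.77 (adjusted p = 0.00107) [-3.34]. Thy1 had 0.287 ± 0.138 CPM in parental and 6.21 ± 7.63 CPM in cKO cells and differed by -4.45 ± 1.06 (adjusted p = 0.00832) [-2.67], the largest move among the 11.

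In the other direction, Hes5 reached 61.2 ± 0.664 CPM in parental and 4.83 ± 3.17 CPM in cKO cells, a difference of 4.27 ± 1.13 (adjusted p = 0.0127) [3.80]. Dcx had 18.2 ± 1.35 and 2.24 ± 1.36 CPM and differed by 3.32 ± 0.46 (adjusted p = 6.11e-05) [2.91]. Sox5 had 16.3 ± 0.977 and 5.83 ± 2.6 CPM and differed by 4.25 ± 0.94 (adjusted p = 0.00336) [3.91]. Its day 3 means were only 0.0502 CPM in parental and 0.444 CPM in cKO cells, so this fitted value rests on few counts. Pax7 had 55.7 ± 1.78 and 4.997 ± 3.08 CPM and differed by 5.65 ± 1.97 (adjusted p = 0.0456) [5.22], a fitted value that rests on 1 count in the day 3 parental libraries.

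Dhrs3, a retinaldehyde reductase gene, had 10.9 ± 0.896 CPM in parental and 3.85 ± 0.82 CPM in cKO cells at day 6. Its day 3 means were 1.6 CPM in parental and 5.3 CPM in cKO cells, and the changes had a difference of 3.22 ± 0.26 (adjusted p = 2.01e-07) [3.05]. Fgf4 fell in both genotypes, from day 3 means of 9.07 CPM in parental and 25.8 CPM in cKO cells. It was at 2.35 ± 0.602 CPM in parental and 0.541 ± 0.182 CPM in cKO cells at day 6. The changes had a difference of 3.63 ± 0.33 (adjusted p = 1.39e-06) [3.91].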

How the results depend on the processing

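The count of called genes ranged from 10767 of 15106 for protein-coding genes to 14830 with the 6 parental libraries alone. It ranged from 12181 to 14762 when 1 library of parental day 3, parental day 6 or cKO day 6 was left out. No gene called in both the main test and an alternative changed direction. Total-count scaling called 59% of changes higher, against 49.9% with TMM. Leaving out 1 library of parental day 3, parental day 6 or cKO day 6 gave 4258 to 6520 genotype differences, and the other settings 4036 to 5761. No library of cKO day 3 or of day 0 was left out singly. No paired analysis was possible because the labels number no replicates, and numbers were given in accession order.

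Among lists, total-count scaling raised the higher calls of glycolysis from 6 to 12 (10 with DESeq2), apoptosis from 5 to 8, FGF and ERK feedback and stress each from 3 to 5. It lowered the lower calls of imprinted genes from 5 to 3. Neuronal genes that fell numbered 5 in place of 3, and apoptosis genes that rose 8 in place of 5, with the 6 parental libraries alone or without replicate 2 of cKO day 6. Translation initiation factors that rose numbered 8 with the 6 parental libraries alone and 3 without replicate 1 of parental day 6.

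Of the genes named, 12 lost their call in at least 1 setting. Adjusted p reached 0.338 for Zrsr1, 0.144 for Hoxb1, 0.0981 for Axin2 and 0.0529 for Grb10 with total-count scaling. It was 0.0534 for Tbx3 and 0.0671 for Tjp1 with the 12 day 3 and day 6 libraries alone. With 1 library left out it reached 0.172 for Hoxc13, 0.16 for Fas, 0.137 for Rspo3, 0.0986 for Tbx6, 0.0857 for Foxa2 and 0.0678 for Ptch1. Uncalled genes near 0 changed sign without being called. With total-count scaling the log2 fold changes were 0.166 for Bmpr1a, 0.0228 for Dll3, 0.0854 for Fgfr1, 0.104 for Myh3 and 0.0367 for Rian. Bmpr1a was at 0.0239 with DESeq2, 0.0242 with RLE factors and 0.0132 among protein-coding genes. With 1 library left out, Bmpr1a ranged from -0.0453 to 0.0282, Hes1 from -0.0223 to 0.11 and Myh3 from -0.151 to 0.0331. Conversely, Dnmt3a, Klf5, Lin28b, Lum, Mir17hg, Rian, Shh, Tcf15 and Wnt6 were called without replicate 2 of cKO day 6, and Pou2f1 with the 6 parental libraries alone (adjusted p = 0.0273).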
